A study of Mus musculus with 6 samples.

Results

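The polo-like kinases are a small family of protein kinases that carry a polo-box domain next to the kinase domain. Plk1, Plk2, Plk3 and Plk4 were examined here, as all probe sets whose single symbol in the platform annotation is 1 of these 4 names. This gave 6 probe sets of the 12422 on the array that are not controls, and 4 genes of 8251 with a symbol of their own. Gene expression had been measured on 6 arrays of mouse embryonic lung at stage E11.5, 1 sample per array. The 3 branching samples held the part of the right and left lungs where side branches form, and the 3 non-branching samples held both main bronchi with some trachea. Genotype, strain and the number of embryos per sample were not given in the sources used here, and nothing says that the samples came from separate litters, so spread between arrays may be technical. The family was chosen by the difference of signal between the regions, above all that of Plk2, already known from these arrays, so the differences of its members are given as a description with no test.

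The family divides by role. Plk1 drives entry into mitosis, the maturation of centrosomes, the attachment of chromosomes to the spindle and cytokinesis, and its mRNA accumulates in dividing cells before mitosis. Plk4 starts the duplication of centrioles, the cores of the centrosome. Plk2 and Plk3 were found in mouse fibroblasts as genes switched on by serum and by fibroblast growth factor, and both are also induced by cellular stress and by p53. In the early lung, branching depends on fibroblast growth factor from the mesenchyme acting on the dividing epithelium of the bud tips.

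The promoters of Plk2 and Plk1 are shown because Plk2 had the largest difference between the regions and Plk1 is the mitotic kinase it was set against. The sequences are the 250 bases before the RefSeq transcription start, on the strand of the gene in the GRCm38 build, from chr13:110394794-110395043 (plus strand) for Plk2 and chr7:122159185-122159434 (plus strand) for Plk1. In the Plk2 sequence, capitals mark the cyclic AMP response element TGACGTCA and the GC boxes (GGGCGG, on the other strand). In the Plk1 sequence they mark a GC box and a CCAAT box. The shorter Plk1 sequence, chr7:122159453-122159482 (plus strand), lies after the start and has the cell cycle genes homology region (CHR, TTTGAA) in capitals.
Plk2: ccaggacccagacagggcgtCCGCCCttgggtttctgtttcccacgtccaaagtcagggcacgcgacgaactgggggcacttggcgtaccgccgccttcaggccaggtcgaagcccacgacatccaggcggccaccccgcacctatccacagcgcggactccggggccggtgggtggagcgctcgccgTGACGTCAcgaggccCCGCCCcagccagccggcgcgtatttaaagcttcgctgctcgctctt
Plk1: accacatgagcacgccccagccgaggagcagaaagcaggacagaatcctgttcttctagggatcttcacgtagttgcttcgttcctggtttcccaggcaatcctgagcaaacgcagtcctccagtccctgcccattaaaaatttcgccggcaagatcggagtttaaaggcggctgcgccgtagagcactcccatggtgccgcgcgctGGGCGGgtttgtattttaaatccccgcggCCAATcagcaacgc
Plk1 after the start: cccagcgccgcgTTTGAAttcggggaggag

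Matches were counted on both strands of the RefSeq windows that run from 250 bases before to 50 bases after each start. The Plk2 window held 1 copy of TGACGTCA, at -62 to -55 from the start, a motif found in 1.79% of 32851 such windows. It also held 2 GC boxes, a motif found in 35.66% of the windows. The Plk1 window held 1 CHR, at 31 to 36 after the start, with a CCAAT box at -14 to -10 and a GC box at -43 to -38. A CHR was found in 17.89% of the windows and a CCAAT box in 37.41%. The Plk3 window (minus strand of chromosome 4) held 1 GC box, at -78 to -73, and the Plk4 window (chromosome 3) held none of these motifs. The letters TGACG, which are part of TGACGTCA and overlap it, occurred 3 times in the Plk2 window, 2 of them inside TGACGTCA, 2 times for Plk3 and 1 time for Plk4, and are in 20.81% of the windows. The TATA box TATAAA (13.62% of windows) and the CArG box of serum response factor (1.63%) matched in none of the 4. These matches describe letters in a window and were not set against the expression values.

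**Figure D1:**
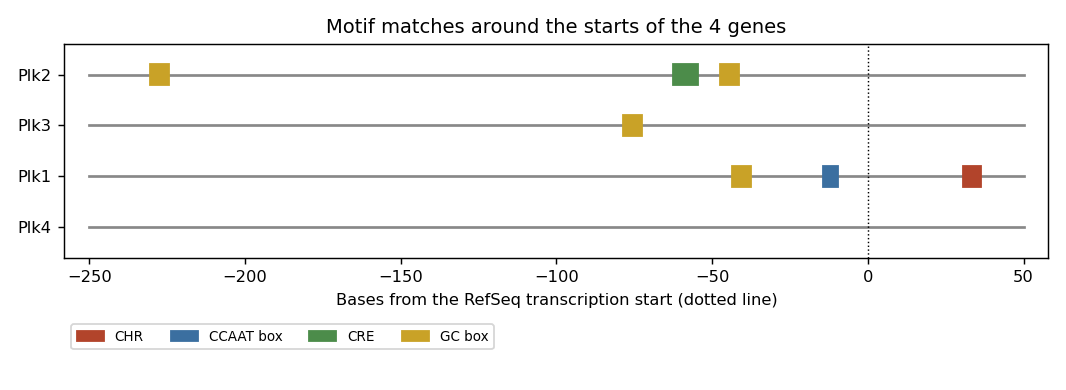
Positions of CHR, CCAAT box, CRE and GC box matches from 250 bases before to 50 bases after the RefSeq start of each gene, in bases, on a line per gene. Plk2 carries the CRE at -62 to -55, Plk1 the CHR at 31 to 36, and Plk4 no match.

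Plk2, the serum-inducible kinase gene (Entrez gene 20620, probe set 92310_at), had the largest difference of the family. Its signal, in arbitrary units on the linear scale as deposited, was 6032.9, 4531.7 and 4664.3 on the branching arrays, against 2039.6, 1942.9 and 1865.9 on the non-branching arrays. The regions did not overlap, and the lowest branching array was 2.22 times the highest non-branching array. The branching arrays averaged 5076.3 ± 831.1, against 1949.5 ± 87.0 for the non-branching arrays (SD, n = 3 each). On the log2 scale the difference, branching minus non-branching, was 1.37 ± 0.14 (SE), or 2.58-fold. Among 6798 genes tested, 64 had a larger difference in favour of branching.

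Plk3, the other growth-factor-inducible member (Entrez gene 12795), did not follow Plk2. Its only probe set, 161636_r_at, read 6109.0, 8228.7 and 7908.1 in branching, against 6681.8, 7716.0 and 8080.3 in non-branching. The regions overlapped over nearly their whole range, with a difference of -0.02 ± 0.16 on the log2 scale (SE). The r in the probe set's name marks a design made with relaxed rules, so the reading may be less specific for Plk3.

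Plk4, the centriole kinase gene (Entrez gene 20873, probe set 98996_at), was uneven among the branching samples. Its signal was 635.3, 965.7 and 1422.8 on the branching arrays, against 603.0, 586.4 and 610.6 on the non-branching arrays. All branching arrays lay above all non-branching arrays, but branching replicate 1 did so by only 1.04 times, while branching replicate 3 was 2.37 times the non-branching mean. The highest branching array was 2.24 times the lowest, against 1.04 times among the non-branching arrays. The SD of log2 signal among the branching arrays exceeded that of 77.9% of the 9316 probe sets tested, whereas 1.36% had a smaller SD than Plk4 among the non-branching arrays. The difference was 0.67 ± 0.34 on the log2 scale (SE). It was 0.38 without branching replicate 3 and 0.97 without branching replicate 1.

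Plk1, the mitotic kinase gene (Entrez gene 18817), was read by 3 probe sets, all of designs that the letters g and f in their names mark as shared with related sequences, and the 3 gave different answers. The brightest, 101350_g_at, read 3464.4, 2527.5 and 2873.2 in branching, against 2450.3, 2469.0 and 2411.9 in non-branching. Every branching array was above every non-branching array, but the gap was 1.02 times, and the difference was 0.26 ± 0.13 on the log2 scale (SE). Probe set 161292_f_at read 722.4, 931.2 and 1150.1 in branching, against 470.6, 513.2 and 711.1 in non-branching. Its regions also stayed apart, by 1.02 times, with a larger difference of 0.72 ± 0.27. Probe set 93099_f_at read 802.1, 1049.8 and 1240.4 in branching, against 1107.9, 940.5 and 947.3 in non-branching. Here the regions overlapped and the difference was 0.03 ± 0.20. With the mean log2 signal of the 3 probe sets, the difference of Plk1 was 0.34.

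**Figure D2:**
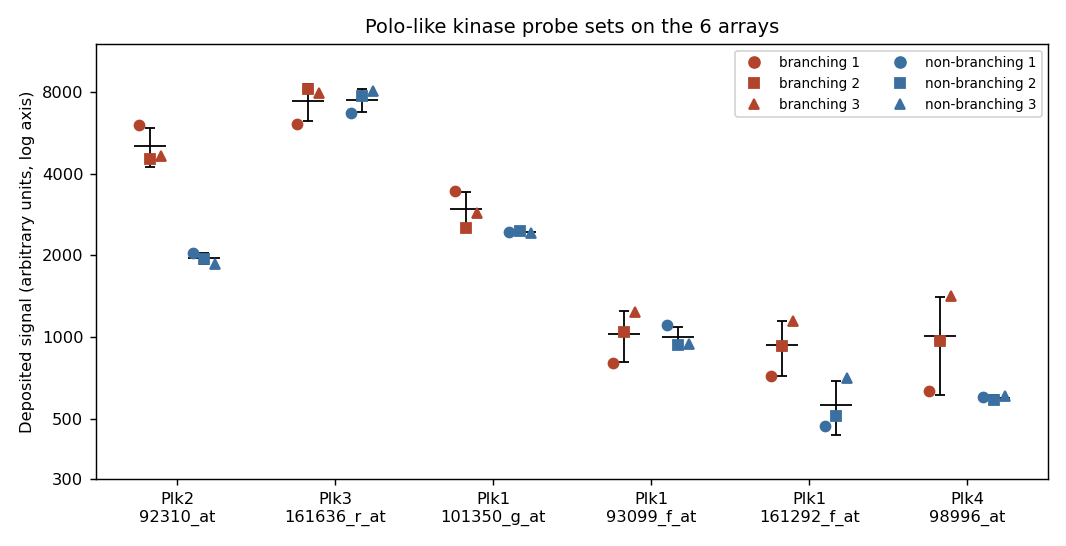
Deposited signal (arbitrary units, log axis) of the 6 polo-like kinase probe sets on the 3 branching arrays and the 3 non-branching arrays, with the mean and SD of each region in black. Plk2 is the probe set with a wide gap between the regions (4531.7 and above in branching, 2039.6 and below in non-branching), while Plk3 and Plk1 93099_f_at overlap.

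The Plk1 probe sets also ordered the branching samples differently. Relative to the non-branching mean of each probe set, branching replicate 1 was at 1.42 for 101350_g_at, its highest branching array, and at 1.28 for 161292_f_at and 0.80 for 93099_f_at, their lowest. Branching replicate 3 was the highest for both f probe sets, at 2.04 and 1.24. Plk4 also had its highest signal on branching replicate 3 and its lowest on branching replicate 1, whereas Plk2 had its highest on branching replicate 1, at 3.10 times the non-branching mean, against 2.33 on replicate 2 and 2.39 on replicate 3. Among the genes tested, 30.5% had their highest branching signal on replicate 3.

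**Figure D3:**
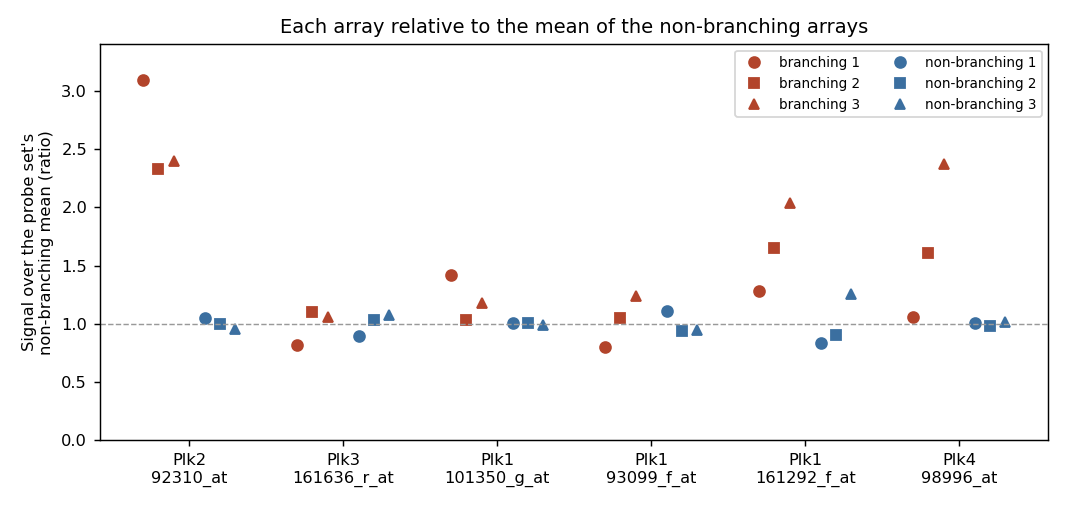
Signal of each array divided by the mean of the 3 non-branching arrays of the same probe set (ratio, linear axis), for branching and non-branching replicates 1 to 3. Branching replicate 1 is high for Plk2 (3.10) and Plk1 101350_g_at (1.42) and low for Plk4 (1.06), and branching replicate 3 is high for Plk4 (2.37) and Plk1 161292_f_at (2.04).

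The mitotic members were then set against Plk2 within each array, where any scaling of the array cancels. The difference of Plk2 exceeded that of Plk1 (101350_g_at) by 1.11 ± 0.05 on the log2 scale (SE, n = 3 arrays per region), and the branching arrays lay above the non-branching arrays by at least 0.96. For Plk1 93099_f_at the excess was 1.34 ± 0.31, again without overlap. For Plk1 161292_f_at it was 0.65 ± 0.38, with overlap, so that the excess over Plk1 ranged from 0.65 to 1.34 with the probe set. The excess over Plk4 was 0.70 ± 0.45, with overlap; it was 0.27 without branching replicate 1 and 1.04 without branching replicate 3. The excess over Plk3 was 1.39 ± 0.29, without overlap. Plk2 had the larger difference in each of these pairings. For Plk4 and 1 of the Plk1 probe sets the arrays of the regions were not separated. Since the family was chosen above all by the difference of Plk2, this order is only a description.

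In the fit over all probe sets (limma, Benjamini-Hochberg adjusted p under 0.05), 189 of 9316 were called, or 2.03% (0.902% higher and 1.13% lower in branching). Of the 6 polo-like kinase probe sets, all of which were bright enough to be tested, 1 was called, that of Plk2. With no variance trend in the fit it was not called. In 4 of the 6, those of Plk2, Plk4 and Plk1 101350_g_at and 161292_f_at, every branching array was above every non-branching array, a pattern found in 9.79% of all probe sets tested (11.0% had the opposite). Since these genes were picked with this contrast in view, neither count is evidence about the family.

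The genes with the most similar signal over the 6 arrays differed by member. For Plk2 they were Ctps (Pearson r = 0.999), a CTP synthase gene, Cdk2ap1 (0.998), Cdca7l (0.996), Ncl (0.995), the nucleolin gene, and Hprt (0.994), a purine salvage gene. For Plk4 they were Golph3 (0.996), Xpnpep1 (0.994), Aimp2 (0.988), Fcho1 (0.983) and Cct8 (0.983). For Plk1 (101350_g_at) they were Elof1 (0.995), Creld2 (0.990), Eef1d (0.985), Eif6 (0.982) and Snrpb2 (0.982), and for Plk3 they were Rmdn3 (0.990), Comtd1 (0.986), Mif (0.985), Cd3e (0.983) and Pak2 (0.980). No gene was on more than 1 of these lists of 5, but lists so short, drawn from 6798 genes, would seldom overlap. The values are the highest of 6798 over 6 arrays that share the split into regions, and they are given as a description.

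Around Plk1, 2 of the 13 genes of mitotic entry measured, Mybl2 and Cks2, rose in branching. All 13 had a difference above 0, with a median of 0.43 on the log2 scale, against -0.01 over all genes tested. In limma 2 passed higher, none lower and 11 did not pass, read against 0.902% and 1.13% of all probe sets. In 10 of the 13 every branching array was above every non-branching array, against 9.79% of all probe sets. Mybl2, a transcription factor gene of dividing cells that acts on promoters of mitotic genes, had 670.8, 630.7 and 899.4 in branching, against 166.7, 103.4 and 126.5 in non-branching. Its non-branching mean was below the background level of 147 (the signal that 95% of values from bacterial and yeast control probe sets did not exceed), which makes the branching signal at least 4.73-fold higher, a lower bound (limma adjusted p = 0.00271). A second, less specific Mybl2 probe set differed by only 0.09 (adjusted p = 0.931). Cks2, a small subunit of the cyclin-dependent kinases, had 2921.1, 2730.3 and 2563.4 in branching, against 1755.2, 2003.0 and 1946.5 in non-branching, and rose by 0.53 ± 0.11 (SE, limma adjusted p = 0.0398). Mybl2 passed whichever array was left out, whereas Cks2 passed in none of the 6 omissions (adjusted p = 0.0949 without branching replicate 1 to 0.139 without non-branching replicate 3).

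Of the kinases that work with Plk1, Aurka, which activates it, had 699.2, 688.3 and 907.1 in branching, against 461.8, 536.6 and 401.5 in non-branching, a difference of 0.71 ± 0.19 that did not pass (limma adjusted p = 0.117). Cdk1 had a difference of 0.45 ± 0.13 (adjusted p = 0.136). These examples were chosen after their values were seen, as the partners closest to Plk1.

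Genes of the spindle and of cytokinesis, where Plk1 acts later in mitosis, gave a like picture. Of 24 tested, 23 had a difference above 0 (median 0.40). In limma 1 passed higher, none lower and 23 did not pass, read against 0.902% and 1.13% of all probe sets. In 15 every branching array was above every non-branching array (9.79% of all probe sets), and in 1 every branching array was below (11.0%). That 1 was Cenpe, a kinetochore motor gene, with means of 40.8 in branching and 119 in non-branching, both below background. Prc1, which bundles the microtubules of the central spindle and, in human cells, recruits Plk1 there, had 951.8, 983.3 and 895.6 in branching, against 572.7, 438.3 and 552.1 in non-branching, and rose by 0.87 ± 0.17 (SE, limma adjusted p = 0.0314). It passed in none of the 6 omissions (adjusted p = 0.0541 without non-branching replicate 1 to 0.109 without branching replicate 2). Across the 37 tested genes of both mitotic lists, 29 had a larger difference than Plk1 by 101350_g_at. The place of Plk1 among them depends on its probe set, since 161292_f_at gave 0.72 and 93099_f_at 0.03. A larger difference than that of Plk4 was found for 7 of the 37, and a larger one than that of Plk2 for 1, Mybl2. Of the 48 genes listed, tested or not, 37 had a RefSeq window and 11 had none, and 29 of the genes with a window were also tested. A CHR was found in 25 of the 37 with a window (67.6%), against 20.2% of all genes. This share describes lists chosen for mitotic roles, and it was not set against the expression values.

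Around Plk4, no gene of the centrosome and of centrioles passed in limma, against 2.03% of all probe sets. At that share, no call among so few genes is not a finding about them. Of 12 tested, 9 had a difference above 0 (median 0.26), and 1 had an unadjusted p under 0.05. That gene was Tubg1, the gamma-tubulin gene, with 879.5, 844.2 and 1068.3 in branching, against 712.7, 604.8 and 702.8 in non-branching (0.46 ± 0.16, adjusted p = 0.215). Sass6, which builds the centriole cartwheel downstream of Plk4, had 181.3, 209.5 and 223.0 in branching, against 150.9, 204.9 and 49.6 in non-branching, close to background (adjusted p = 0.541). Fbxw5, a ubiquitin ligase subunit known in human cells to act on the Sass6 protein, differed by 0.26 ± 0.13 (adjusted p = 0.417). In 8 of the 12 the highest branching array was replicate 3, as for Plk4, against 30.5% of all genes tested. The count was 7 of 13 for mitotic entry, 11 of 24 for the spindle and 9 of 20 for DNA replication. It was also 9 of 20 for genes induced by serum and by stress, and 2 of 11 for p53 targets.

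DNA replication genes, which mark cells in S phase, were measured as a second reading of proliferation. Of 20 tested, 19 had a difference above 0 (median 0.40). In limma 3 rose, none fell and 17 did not pass, read against 0.902% and 1.13% of all probe sets. Rrm2, the small subunit of ribonucleotide reductase, had 1552.6, 1855.7 and 2012.8 in branching, against 893.3, 903.2 and 909.3 in non-branching, a rise of 0.99 ± 0.13 (SE, limma adjusted p = 0.00661). Pcna, the sliding clamp, rose by 0.87 ± 0.16 (adjusted p = 0.0257) and Tk1, thymidine kinase, by 0.78 ± 0.13 (adjusted p = 0.0160). The other Tk1 probe set, which had means below background in both regions (136 in branching and 80.2 in non-branching), did not pass (adjusted p = 0.545). Rrm2 passed whichever array was left out. Pcna did not pass without branching replicate 2 (adjusted p = 0.0898) or 3 (0.110) or non-branching replicate 2 (0.106) or 3 (0.112), nor Tk1 without branching replicate 3 (0.0813) or non-branching replicate 3 (0.0618).

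Around Plk2 and Plk3, 20 genes induced by serum and by stress were tested, and 8 had a difference above 0 and 12 below (median -0.16). In limma 2 passed higher, none lower and 18 did not pass, read against 0.902% and 1.13% of all probe sets. Phlda1, a gene induced by growth factors, had 726.7, 909.0 and 933.2 in branching, against 331.1, 218.6 and 301.2 in non-branching, a rise of 1.61 ± 0.22 (SE, limma adjusted p = 0.00799). Dusp6, a phosphatase of ERK, had 618.9, 822.9 and 822.3 in branching, against 415.7, 380.7 and 409.5 in non-branching, a rise of 0.90 ± 0.19 (adjusted p = 0.0461). Phlda1 missed the threshold without branching replicate 3 (adjusted p = 0.0512). Dusp6 passed without branching replicate 1, but not without branching replicate 2 (0.142) or 3 (0.185) or non-branching replicate 1 (0.0896), 2 (0.136) or 3 (0.141). The immediate early gene Egr1 had a difference of -0.54 (adjusted p = 0.531) and Jun one of -0.62 (adjusted p = 0.297), and Fos was too dim to be tested. These 3 were named after their values were seen, as the best known genes of the class.

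Of 11 p53 target genes tested, 9 had a difference above 0 (median 0.27). In limma 1 fell, none rose and 10 did not pass, read against 1.13% and 0.902% of all probe sets. Ccng1, Polk and Rrm2b, among those tested, had means below background in both regions. Sesn1, a stress-responsive regulator of growth signalling, had 370.9, 397.5 and 386.1 in branching, against 639.1, 803.6 and 744.0 in non-branching, and fell by 0.92 on the log2 scale (SE 0.18, limma adjusted p = 0.0335). It passed in none of the 6 omissions (adjusted p = 0.0570 without non-branching replicate 1 to 0.149 without non-branching replicate 3). The p53 target Cdkn1a had a difference of 0.90 by its brighter probe set (adjusted p = 0.277). The other read 55.8, 79.8 and 90.3 in branching, all below background, against 326.8, 98.3 and 82.2 in non-branching, of which 1 array was above it (adjusted p = 0.560). Neither passed, and this gene was named after its values were seen. Of the 9 called genes named from these lists, Mybl2 was the only 1 that also passed limma with no variance trend (adjusted p = 0.0398), and the highest of the others was Cks2 (adjusted p = 0.254).

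**Figure D4:**
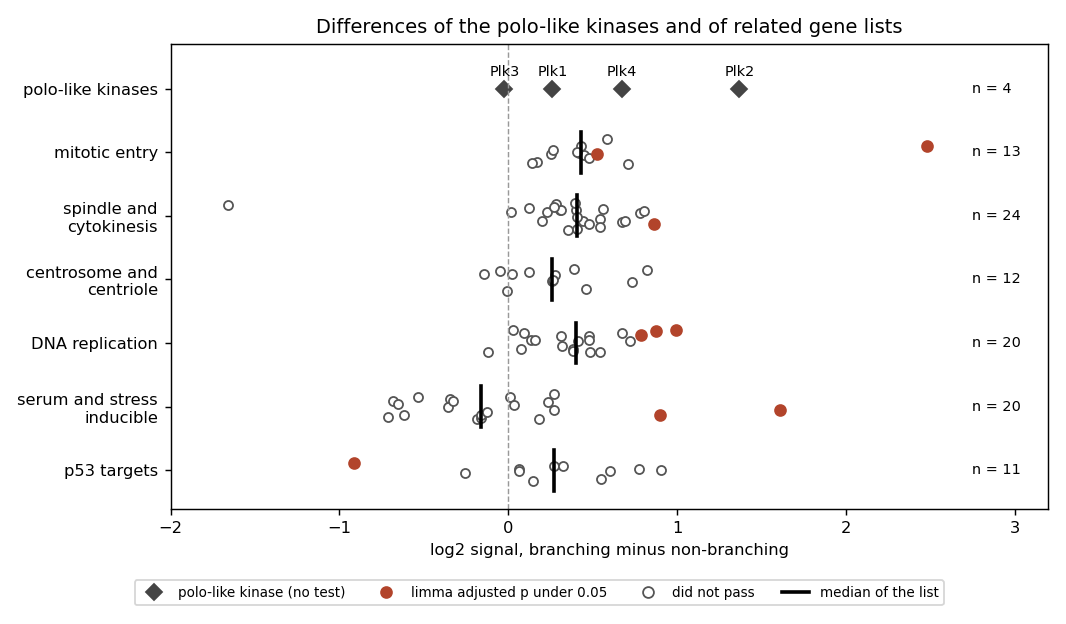
log2 signal, branching minus non-branching, of the 4 polo-like kinases (diamonds, each by its brightest probe set, no test) and of each tested gene of 6 lists, with filled points for genes with a limma adjusted p under 0.05 and a bar at the median of each list. Plk2 (1.37) lies beyond the mitotic genes other than Mybl2, and Plk1 (0.26) lies below the medians of the mitotic lists (0.43 and 0.40).

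Markers of several cell types differed between the regions, where fewer cells of a type and less RNA per cell cannot be told apart. Counts of markers that rose or fell in limma are read against 0.902% and 1.13% of all probe sets. At these shares, no call in a short list is not a finding about that cell type. The summed signal of 9 red blood cell markers was 137260 to 152716 in branching, against 88967 to 96422 in non-branching. The globin genes make up most of it. Of the 9 tested, 3 rose, the globin genes Hba-a1, Hba-x and Hbb-y, and 7 had a difference above 0. Epor and Klf1 lay the other way, at -0.90 and -0.48, and neither passed in limma. The summed signal of 5 smooth muscle markers was 4570 to 4751 in branching, against 9452 to 11018 in non-branching, and 5 of 5 fell. That of 8 lung mesenchyme markers was 13942 to 14201 in branching, against 25686 to 27905 in non-branching, most of it from Col1a1 and Col1a2, and 4 of 7 tested fell. Foxf1, on the same list, lay the other way, at 573.7, 536.9 and 605.9 in branching, against 102.5, 247.9 and 380.2 in non-branching, without overlap (adjusted p = 0.145). The 11 epithelial markers summed to 8241 to 9114 in branching, against 8142 to 9250 in non-branching, and none of 10 tested passed in limma. The 4 with an unadjusted p under 0.05 went both ways, each without overlap, so the even sum does not show that the epithelium was alike. Sftpc and Cldn6 were higher in branching, by 1.99 and 0.62, while Foxa2 and Id2 differed by -0.62 and -0.45. The sums in branching against non-branching were 1878 to 1957 against 3066 to 3970 for 8 cardiac and 962 to 1371 against 1583 to 1987 for 6 skeletal muscle markers. They were 1712 to 2326 against 2654 to 2952 for 7 endothelial and 3655 to 4129 against 4441 to 4854 for 6 neuronal markers. Each of these groups had 1 marker that fell. In cardiac muscle it was Actc1 (means 629.7 in branching and 1621.4 in non-branching). Its probe set is marked f, a design shared with related sequences. The other Actc1 probe set also fell (143.7 and 452.3). In skeletal muscle the marker was Tnnt1 (means 219.8 in branching and 669.3 in non-branching), whose other probe set lay the other way (355.5 and 253.0). Myod1 and Myog differed by only -0.10 and 0.02. Among the neuronal markers it was Sox10 (means 828.6 and 1717.6), while 3 of the 6 had a difference above 0. The 6 leukocyte markers summed to 912 to 972 in branching, against 753 to 864 in non-branching, and none of 3 tested passed in limma. Ptprc, their defining gene, Lyz2 and Aif1 were below background in both regions. Those tested disagreed: Csf1r and Mpo differed by 0.49 and 0.98, and Cd68 by -0.56. The second probe sets of Csf1r and Mpo lay the other way, at -1.36 and -0.77. The part of these shifts in the differences of Plk2 and of the mitotic genes was not tested. Array medians were 212 to 221 in branching and 217 to 229 in non-branching.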

How the data were processed

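The deposited values are probe set intensities on a linear scale, 1 column per array, and how the authors computed them is not stated in the labels or the table. Each array had a mean near 500 without its extreme 2% of values at either end (499.7 to 499.9), so the authors' scaling was kept. Precision is limited by having 3 arrays per region. Of 12488 probe sets, 66 controls were left out, and gene names came from the platform annotation, where 10833 of 12422 had 1 symbol. Values below 16 were set to 16, log2 was taken, the dimmest 25% by mean log2 signal were dropped, and 9316 were fitted with limma 3.58.1 in R 4.3.3 (eBayes with a variance trend, two-sided), with Benjamini-Hochberg adjustment over all of them and a threshold of 0.05. SE values of the polo-like kinases are ordinary, those of other genes moderated. Background was set at 147, which 95% of the 114 values from 19 bacterial and yeast control probe sets did not exceed. A bound on a fold uses means of log2 signal with each array raised to that level. A gene was represented by its brightest probe set. The fit was tested on simulated data with known changes and independent noise for each probe set. Such data hold no effects shared by an array. The kinases and gene lists were chosen with earlier results of these data known. In each list up to 6 called genes were named, or the 3 with the smallest p, and for each kinase the 5 genes of highest correlation. The labels do not say whether equal replicate numbers pair the samples. The deviations of same-numbered arrays from their region means correlated at -0.002, 0.013 and -0.015. These values show no shared replicate effect, but they cannot tell whether same-numbered samples came from the same lungs. Alternatives covered the replicate block, normalization, centring, filter, floor, variance trend, probe set choice and leaving out each array. Promoters came from RefSeq (GRCm38), and all 4 genes matched.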

Additional observations from a re-analysis of the deposited data

How the results depend on the processing

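Over 9 processing settings the difference of Plk2 ran from 1.34 to 1.41, and with 1 array left out from 1.24 to 1.45. Since Plk2 was chosen by this difference, the ranges describe it and are no support for it. The ranges with 1 array left out were 0.14 to 0.37 for Plk1, -0.10 to 0.11 for Plk3 and 0.38 to 0.97 for Plk4. Chosen after seeing the data, the other Plk1 probe sets gave 0.72 and 0.027, with an excess of Plk2 over Plk1 of 0.65 and 1.34; the mean of the 3 gave an excess of 1.03.

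The counts of called genes were less stable, and the cause was not tested. Probe sets called higher and lower were 84 and 105 as reported, 44 and 70 with the replicate block, 38 and 62 with no filter on dim probe sets, and 5 and 17 with no variance trend. With 1 array left out they were 16 to 69 higher and 38 to 98 lower. With the replicate block, and also with no filter, 1 mitotic entry gene, 0 spindle genes, 1 DNA replication gene, 1 serum and stress gene and 0 p53 targets were called. With no variance trend these counts were 1, 0, 0, 0 and 0. With the dimmer 50% left out, 4 spindle and 5 DNA replication genes were called. With 1 array left out the counts were 1 to 2 for mitotic entry, 0 for the spindle, 1 to 4 for DNA replication, 0 to 2 for serum and stress and 0 for p53 targets. The 0 calls of centrosome genes remained 0 in every setting run. Of the 15 alternatives, Mybl2 passed in 15, Rrm2 in 14, Phlda1 in 13, Tk1 in 9, Pcna in 8, Dusp6 in 7, and Cks2, Prc1 and Sesn1 in 6. Since the labels do not say whether the replicate numbers pair the samples, the block is given as a setting and not as a paired analysis. Genes near the background level, Sass6 among them, are limited by their signal.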
